A study of Mus musculus with 22 samples.

Results

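The genes described here build the MHC class I molecule and load it with peptide. They are H2-K1 and H2-D1, the classical class I heavy chains, H2-T23, a non-classical heavy chain, B2m, the light chain, Tap1 and Tap2, the peptide transporter, Tapbp (tapasin), which holds the heavy chain at the transporter, and Psmb8 and Psmb9, catalytic subunits of the immunoproteasome. Their probe sets were chosen by annotated gene symbol alone. Of 12422 probe sets that are not controls, 15 carried 1 of these symbols and no other, and these 15 covered 8 of the 9 genes. H2-T23 had no probe set of its own. Another 4 probe sets listed an H2 member together with other class I genes and are described separately.

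Cells show fragments of their own proteins to CD8 T cells on class I molecules. Proteasomes cut the proteins, the Tap1 and Tap2 transporter moves the fragments into the endoplasmic reticulum, tapasin and its partners load them, and the loaded heavy chain leaves for the surface together with B2m. Healthy skeletal muscle fibres are known for low class I display, whereas blood vessel and immune cells carry much more, and interferon gamma raises the genes of the pathway together. Heavy chain genes are highly polymorphic, and inbred strains carry fixed sets of alleles called H2 haplotypes.

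The study measured total RNA from leg muscle and from the extraocular muscles that move the eye (EOM) of SJL mice and Balb mice, both at 10 months and at 12 months (labelled as 1 year). SJL is an inbred strain known to carry a mutation of the dysferlin gene and to develop a slow muscle disease, and Balb was the other strain compared. SJL and Balb mice are known to carry different H2 haplotypes, so a strain difference in a heavy chain's RNA and a difference in how well each strain's allele matches the probes cannot be told apart. The labels give no substrain, sex or muscle of the leg, and do not tell if a group's arrays came from separate animals. The p-values therefore speak only of the spread among these arrays, which may be technical. Each group had 3 arrays, except EOM at 12 months, which had 2 in each strain, giving 22 arrays in 8 groups.

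The deposited values were linear intensities that the authors had scaled, with a 2% trimmed mean of 1500.8 to 1501.1 on every array. The number of arrays limits the precision, and no detection calls were used. The 4 arrays of replicate 1 at 10 months stood apart, with Actb 3 prime to 5 prime ratios of 5.05 to 53.7 against 0.847 to 1.93 on the other 18 arrays. The members' strain and muscle differences are therefore given with all 22 arrays and with the other 18, and age differences with each set in which they passed. Of 12 listed skeletal muscle genes, Myh2 was left out because it lay among the lowest 30% of probe sets by mean. Of the other 11, 6 (Ckm, Mb, Myh1, Tnnt3, Tnni2 and Mylpf) never fell below percentile 80.3 of all probe sets on any array. For Acta1, Pygm and Actn3 the lowest array stood between percentiles 51.7 and 65.6, and for Tnnc2 and Myh4 it stood at 16.4 and 0.00805. The median array intensity was 565.8 to 650.6 at 10 months and 423.1 to 561.1 at 12 months, so differences between ages depend on the scaling.

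The genes' promoters are shown to set out what the pathway's members share and where they differ before their RNA levels are described. A RefSeq table for the GRCm38.p6 build held an upstream window for 8 of the 9 genes, and each window below is the 250 bases before the annotated start. That build is the sequence of another strain, so the alleles of SJL and Balb can differ from it. B2m lies on chromosome 2 and the other members lie on chromosome 17. Windows were searched on both strands for the kappaB core GGGATTCCC, the core of the interferon-stimulated response element AAANNGAAA, the shorter interferon regulatory factor core AANNGAAA (which lies inside the previous motif), the gamma-activated sequence TTCNNNGAA, the X2 core TGACGC and the CCAAT box. Capitals mark the matches.
H2-K1 (chr17:34000334-34000583, minus strand): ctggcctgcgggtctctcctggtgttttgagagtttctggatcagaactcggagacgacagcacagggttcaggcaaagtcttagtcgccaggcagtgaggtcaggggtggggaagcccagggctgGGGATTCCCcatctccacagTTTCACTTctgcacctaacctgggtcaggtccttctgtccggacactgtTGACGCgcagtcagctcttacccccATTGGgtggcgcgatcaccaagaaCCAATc
H2-D1 (chr17:35262844-35263093, plus strand): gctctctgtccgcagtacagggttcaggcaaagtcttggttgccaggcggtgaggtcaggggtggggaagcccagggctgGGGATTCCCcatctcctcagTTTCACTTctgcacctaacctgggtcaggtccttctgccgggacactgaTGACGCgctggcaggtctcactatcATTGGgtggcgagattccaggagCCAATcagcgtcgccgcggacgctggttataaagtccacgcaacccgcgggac
B2m (chr2:122147437-122147686, plus strand): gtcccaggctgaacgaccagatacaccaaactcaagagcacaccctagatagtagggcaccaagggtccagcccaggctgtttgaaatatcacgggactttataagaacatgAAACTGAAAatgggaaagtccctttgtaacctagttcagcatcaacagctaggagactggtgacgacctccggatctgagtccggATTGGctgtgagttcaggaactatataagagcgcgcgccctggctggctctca
Tap1 (chr17:34187306-34187555, plus strand): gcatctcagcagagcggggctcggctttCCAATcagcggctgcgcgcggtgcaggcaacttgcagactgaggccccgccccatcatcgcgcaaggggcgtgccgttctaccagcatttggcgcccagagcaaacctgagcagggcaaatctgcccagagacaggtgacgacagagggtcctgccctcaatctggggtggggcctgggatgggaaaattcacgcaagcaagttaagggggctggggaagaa

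H2-K1 and H2-D1 carried the same block of motifs. In the H2-K1 window shown, the kappaB core stood at -124 to -116, an interferon regulatory factor core at -104 to -97 and the X2 core at -55 to -50, counted from the start. H2-D1 had them at -170 to -162, -150 to -143 and -101 to -96. From the kappaB core to the X2 core, 71 of 75 bases (94.7%) were identical between both genes. The kappaB letters occur in 0.301% of the table's 32851 windows and the X2 core in 6.12%. B2m had the core of the interferon-stimulated response element at -138 to -130, as 9.37% of windows do, and H2-T23 had it at -124 to -116. Psmb8 had a gamma-activated sequence at -97 to -89 (7.02% of windows), and the interferon regulatory factor core was in 21.3% of windows and the CCAAT box in 33.8%. Tap1 and Psmb9 are read in opposite directions from starts 225 bases apart, so their windows overlap. The CCAAT box at -222 to -218 of Tap1 and that at -8 to -4 of Psmb9 are the same site. Neither window held any of the other letters. A match describes the letters of a window and not the binding of a factor.

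The first comparison asks how class I genes differ between the strains within a muscle. The clear difference was at 1 probe set of H2-K1, 97700_at, which read 4.06 times higher in SJL than in Balb leg and 5.14 times higher in SJL than in Balb EOM. A probe set shared by H2-T23 and a class I pseudogene, 98472_at, was 5.55 and 4.52 times higher. The other 14 probe sets with 1 symbol passed the test in neither muscle over all 22 arrays, among them both other probe sets of H2-K1, and of all 8695 probe sets tested 1.41% passed in leg and 0.932% in EOM. Without the 4 arrays that stood apart, B2m, Psmb9, Tapbp and a second H2-K1 probe set also passed as higher in SJL leg, and 1 H2-D1 probe set passed as lower in SJL EOM. With those 18 arrays 8.2% of all probe sets tested passed in leg and 8.38% in EOM.

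H2-K1 encodes the K heavy chain. In leg muscle, 97700_at read 1144, 889.7 and 1316 in Balb at 10 months, 751, 636 and 739.9 in Balb at 12 months, 3846, 3810.2 and 3176 in SJL at 10 months and 3393, 4263 and 3424 in SJL at 12 months. In EOM it read 1078, 994 and 1317 in Balb at 10 months, 735 and 1105 in Balb at 12 months, 4099.9, 5678 and 5820.4 in SJL at 10 months and 6458 and 4419.6 in SJL at 12 months. Every SJL array lay above every Balb array of the same muscle, at both ages and with no overlap. From the highest group mean to the lowest, the order was SJL EOM at 12 months (5439), SJL EOM at 10 months (5199.6), SJL leg at 12 months (3693), SJL leg at 10 months (3611), Balb EOM at 10 months (1129.6), Balb leg at 10 months (1117), Balb EOM at 12 months (920.05) and Balb leg at 12 months (709). Neighbours in this order overlapped except SJL leg at 10 months over Balb EOM at 10 months. On the log2 scale the strain difference was 2.02 in leg (SE 0.16, adjusted p = 6.56e-07) and 2.36 in EOM (SE 0.18, adjusted p = 4.28e-07), by limma over all probe sets tested with Benjamini-Hochberg adjustment. With 18 arrays the values were 2.01 and 2.43, and the call held in both muscles under all 35 settings tried, the main one included. The leg difference minus the EOM difference was -0.34 (95% interval -0.85 to 0.16, adjusted p = 0.9996).

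The other probe sets of H2-K1 did not share this difference. 93120_f_at averaged 11707 ± 1572 (SD, n = 6) in Balb leg and 15684 ± 3070.4 (SD, n = 6) in SJL leg, and the EOM means were 19515 ± 2674 (SD, n = 5) in Balb and 21715 ± 2692 (SD, n = 5) in SJL. The strains overlapped in both muscles, and the log2 differences were 0.41 (adjusted p = 0.366) with 22 arrays and 0.28 (adjusted p = 0.134) with 18 in leg, and 0.15 (adjusted p = 0.965) with 22 arrays and 0.11 (adjusted p = 0.638) with 18 in EOM. 97125_f_at gave 0.52 (adjusted p = 0.728) in leg, and in EOM 0.12 (adjusted p = 0.991) with 22 arrays and 0.12 (adjusted p = 0.725) with 18. With 18 arrays the leg difference of 97125_f_at passed, at 0.56 (adjusted p = 0.0283), and its SJL leg arrays then lay above its Balb leg arrays without overlap. The suffix f marks probe sets that the maker lists as matching several members of a gene family, so their signal can come from more than one heavy chain gene.

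Probe sets of one gene were set against each other on each array, which asks whether they gave the same strain difference. The log2 ratio of 93120_f_at to 97700_at ran from 1.65 to 2.57 on the SJL arrays and from 3.07 to 4.60 on the Balb arrays. The ratio of 97125_f_at to 97700_at ran from -1.62 to -0.09 in SJL and from 0.17 to 1.66 in Balb. Strain shifted these ratios by -1.91 and -1.87, each with p = 4.17e-05 and adjusted p = 0.000208 over 10 pairs, by an exact two-sided permutation test within muscle and age whose smallest possible p this is. The third pair of H2-K1, 93120_f_at to 97125_f_at, shifted by -0.04 (adjusted p = 0.859). None of the 3 pairs of H2-D1, 1 pair of Tap1 and 3 pairs of Tapbp passed with 22 arrays. With 18 arrays, where the smallest possible p is 0.000463, both H2-K1 pairs passed again, as did 97540_f_at to 97541_f_at of H2-D1 (-0.45, adjusted p = 0.00463) and 100154_at to 102689_at of Tapbp (0.89, adjusted p = 0.00154).

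**Figure D1:**
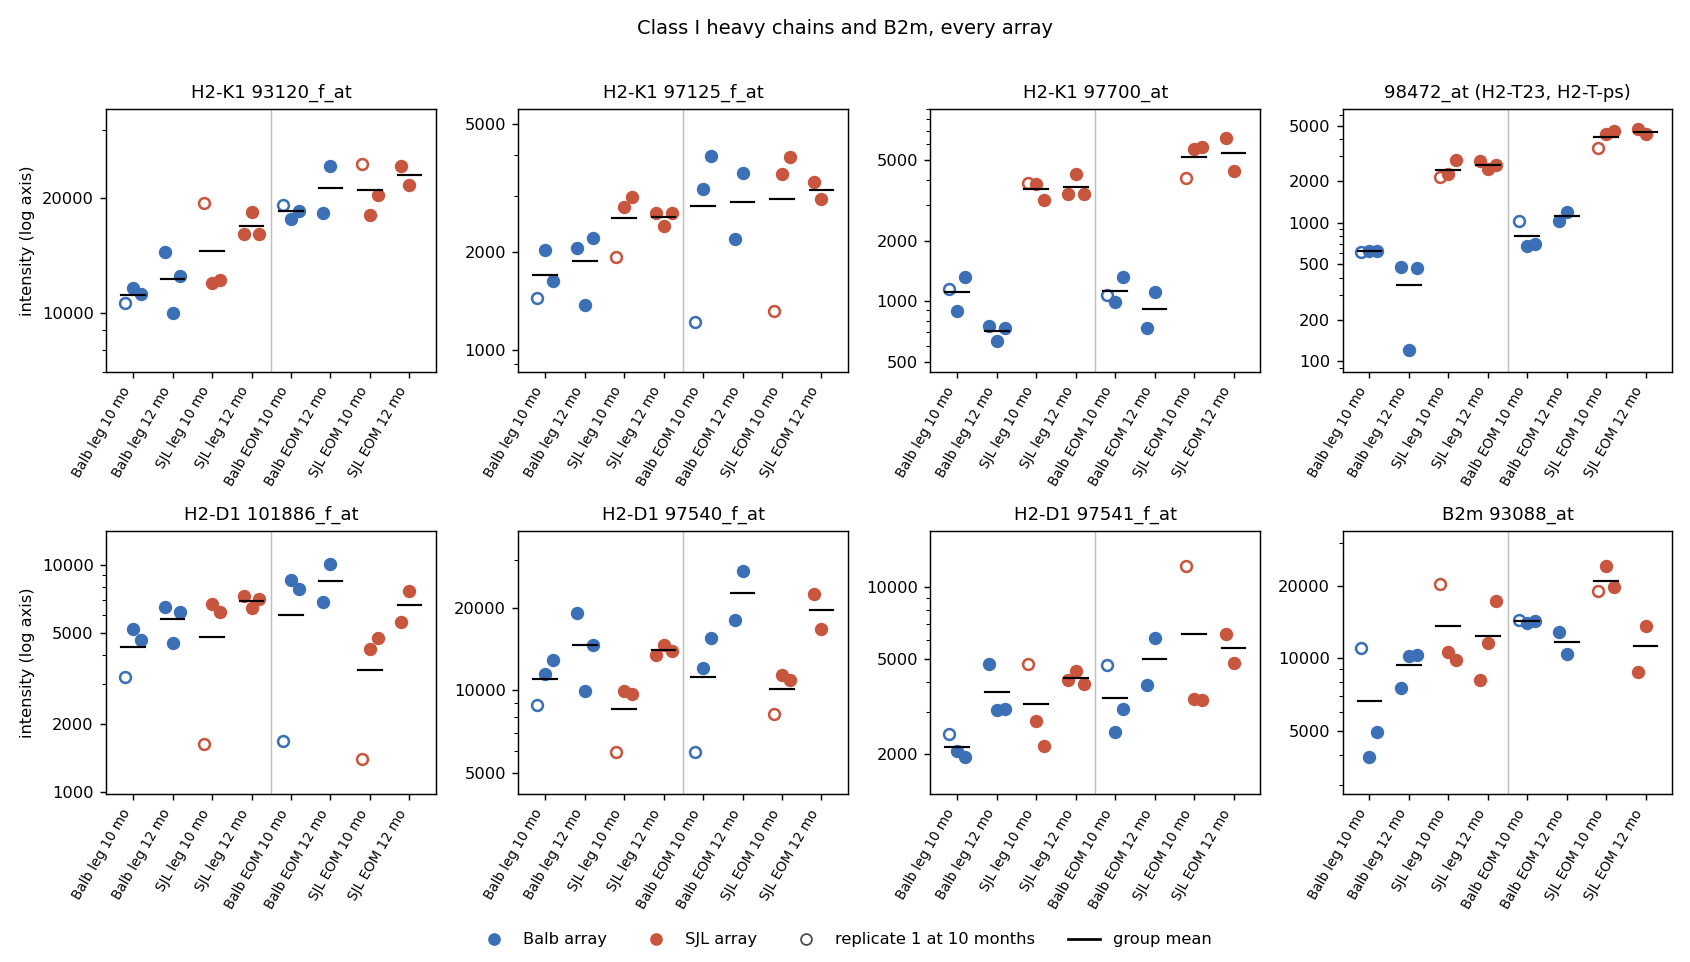
Intensity on each array (log axis) of the H2-K1, H2-D1 and B2m probe sets and of 98472_at, by strain, muscle and age; open symbols are the 4 replicate 1 arrays at 10 months and bars are group means. At 97700_at and 98472_at every SJL array lies above every Balb array of the same muscle, whereas at the other probe sets the strains overlap in both muscles.

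H2-T23 encodes Qa-1, a non-classical chain that presents a narrow set of peptides to NK cell receptors, and it was measured only through probe sets shared with other genes. In leg muscle 98472_at, listed for H2-T23 and H2-T-ps, read 611, 629 and 620.2 in Balb at 10 months, 483, 120.1 and 471 in Balb at 12 months, 2136, 2236 and 2838 in SJL at 10 months and 2767, 2451 and 2608 in SJL at 12 months. EOM values were 1019, 684 and 701 in Balb at 10 months, 1034 and 1201 in Balb at 12 months, 3435, 4324 and 4538 in SJL at 10 months and 4728 and 4324 in SJL at 12 months. SJL arrays were again above all Balb arrays of the same muscle, and the Balb leg array of replicate 2 at 12 months was the lowest of all. The log2 differences were 2.47 in leg (SE 0.25, adjusted p = 8.19e-06) and 2.18 in EOM (SE 0.28, adjusted p = 0.000203), and both held under all 35 settings. With 18 arrays they were 2.51 and 2.33. Across the 22 arrays its log2 values correlated with those of H2-K1 97700_at at r = 0.924, a description over arrays in which the strain difference is shared. It cannot be said which of the listed genes gave the signal.

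Of the other shared probe sets, 102161_f_at lists 10 class I symbols, 97174_r_at lists 4 and 95773_at lists 5. 102161_f_at ranged from 1135 to 4192 in Balb leg, 528 to 4888 in SJL leg, 936 to 5607 in Balb EOM and 311 to 3777 in SJL EOM, and its strain differences were 0.10 (adjusted p = 0.987) with 22 arrays and 0.36 (adjusted p = 0.175) with 18 in leg, and -0.59 (adjusted p = 0.965) with 22 arrays and -0.39 (adjusted p = 0.173) with 18 in EOM. The lowest array of each of these 4 sets was a replicate 1 array at 10 months. 97174_r_at gave 0.62 (adjusted p = 0.772) with 22 arrays and 0.87 (adjusted p = 0.222) with 18 in leg, and 0.04 (adjusted p = 0.994) with 22 arrays and 0.12 (adjusted p = 0.905) with 18 in EOM. 95773_at was among the lowest 30% of probe sets and was not tested.

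H2-D1 encodes the D heavy chain, and its 3 probe sets did not point one way. In leg, 101886_f_at read 3212, 5209 and 4685 in Balb at 10 months, 6548, 4540.4 and 6188 in Balb at 12 months, 1627, 6694 and 6170.5 in SJL at 10 months and 7278, 6437 and 7078 in SJL at 12 months. On EOM arrays its values were 1682, 8549 and 7834 in Balb at 10 months, 6848 and 10050.3 in Balb at 12 months, 1396, 4239 and 4742 in SJL at 10 months and 5573 and 7693 in SJL at 12 months. In all 4 of the 10-month groups the replicate 1 array was the lowest, and in SJL leg and both EOM groups it lay far below the other arrays. Over all arrays the strain differences were 0.11 (adjusted p = 0.981) in leg and -0.50 (adjusted p = 0.919) in EOM. With 18 arrays EOM was lower in SJL by this probe set, at -0.60 (SE 0.14, adjusted p = 0.0125), leg was 0.33 (adjusted p = 0.138), and leg minus EOM was 0.93 (SE 0.19, adjusted p = 0.0164).

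The remaining H2-D1 probe sets overlapped between strains. In leg, 97540_f_at averaged 12833 ± 3770.1 (SD, n = 6) for Balb and 11285 ± 3355 (SD, n = 6) for SJL. Its EOM means were 15830.1 ± 7938 (SD, n = 5) for Balb and 13956 ± 5713 (SD, n = 5) for SJL. Its strain differences were -0.20 (adjusted p = 0.943) with 22 arrays and -0.16 (adjusted p = 0.644) with 18 in leg, and -0.12 (adjusted p = 0.991) with 22 arrays and -0.25 (adjusted p = 0.429) with 18 in EOM. 97541_f_at averaged 2896 ± 1048 (SD, n = 6), 3698 ± 1019.9 (SD, n = 6), 4074 ± 1444 (SD, n = 5) and 6040.5 ± 3697 (SD, n = 5) in that order, with differences of 0.37 (adjusted p = 0.887) with 22 arrays and 0.25 (adjusted p = 0.369) with 18 in leg, and 0.41 (adjusted p = 0.889) with 22 arrays and 0.23 (adjusted p = 0.444) with 18 in EOM. Its highest value, 12283, came from the replicate 1 array of SJL EOM at 10 months, against at most 6344 on the other SJL EOM arrays.

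B2m, the light chain that every classical heavy chain needs to fold, was measured by 1 probe set. In leg it read 11029.7, 3907 and 4980 in Balb at 10 months, 7552, 10239 and 10375 in Balb at 12 months, 20361, 10625 and 9824 in SJL at 10 months and 8121, 11608 and 17245 in SJL at 12 months. EOM arrays read 14380.2, 14008 and 14344 in Balb at 10 months, 12872 and 10475 in Balb at 12 months, 18956, 24041 and 19665 in SJL at 10 months and 8802 and 13670.2 in SJL at 12 months. At 10 months 2 of 3 Balb leg arrays lay below every SJL leg array, and over both ages the strains overlapped. From the highest group mean to the lowest, the order was SJL EOM at 10 months (20888), Balb EOM at 10 months (14244), SJL leg at 10 months (13603), SJL leg at 12 months (12325), Balb EOM at 12 months (11674), SJL EOM at 12 months (11236), Balb leg at 12 months (9389) and Balb leg at 10 months (6639). Neighbours in this order overlapped except SJL EOM at 10 months over Balb EOM at 10 months. The leg difference was 0.72 over 22 arrays (SE 0.25, adjusted p = 0.306) and 0.77 over 18 (SE 0.18, adjusted p = 0.0123). In EOM it was 0.23 (adjusted p = 0.970) and 0.27 (adjusted p = 0.455).

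Among the peptide supply and loading genes, none passed between strains with 22 arrays. Psmb9 (LMP2) read 119.8, 193 and 163 in Balb at 10 months, 669, 278 and 552 in Balb at 12 months, 127, 919 and 479.6 in SJL at 10 months and 641, 562 and 787 in SJL at 12 months in leg. For EOM the values were 243, 1034 and 832 in Balb at 10 months, 1530.3 and 2708 in Balb at 12 months, 674, 1219 and 1339 in SJL at 10 months and 1117 and 627 in SJL at 12 months. Balb leg at 10 months was the lowest group, below every SJL leg array other than replicate 1 at 10 months. From the highest group mean to the lowest, the order was Balb EOM at 12 months (2119), SJL EOM at 10 months (1077), SJL EOM at 12 months (872), Balb EOM at 10 months (703), SJL leg at 12 months (663), SJL leg at 10 months (508), Balb leg at 12 months (499.8) and Balb leg at 10 months (159). Neighbours in this order overlapped except Balb EOM at 12 months over SJL EOM at 10 months and Balb leg at 12 months over Balb leg at 10 months. Its leg difference was 0.85 (adjusted p = 0.642) with 22 arrays and 1.14 (adjusted p = 0.0142) with 18, and in EOM it was -0.25 (adjusted p = 0.991) and -0.41 (adjusted p = 0.456). Leg minus EOM was 1.10 (adjusted p = 0.9996) and, with 18 arrays, 1.55 (adjusted p = 0.0639), so a difference between muscles did not pass.

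Psmb8 (LMP7), the other immunoproteasome subunit, gave strain differences of 0.16 (adjusted p = 0.961) with 22 arrays and 0.41 (adjusted p = 0.188) with 18 in leg, and -0.03 (adjusted p = 0.994) with 22 arrays and 0.11 (adjusted p = 0.800) with 18 in EOM. Tap2 gave 0.32 (adjusted p = 0.943) with 22 arrays and 0.78 (adjusted p = 0.193) with 18 in leg, and 0.72 (adjusted p = 0.771) with 22 arrays and 0.65 (adjusted p = 0.314) with 18 in EOM. Tap1 by 103035_at gave 0.29 (adjusted p = 0.843) with 22 arrays and 0.24 (adjusted p = 0.573) with 18 in leg, and 0.15 (adjusted p = 0.983) with 22 arrays and 0.13 (adjusted p = 0.788) with 18 in EOM. Its other probe set, 162278_r_at, gave -0.70 (adjusted p = 0.793) with 22 arrays and -0.54 (adjusted p = 0.607) with 18 in leg, and -0.33 (adjusted p = 0.983) with 22 arrays and -0.16 (adjusted p = 0.900) with 18 in EOM. Tapbp, by 100154_at, averaged 2023 ± 356 (SD, n = 5) in Balb leg and 2929 ± 458 (SD, n = 5) in SJL leg over the 18 arrays, and its leg difference passed there at 0.51 (adjusted p = 0.00619) against 0.32 (adjusted p = 0.926) with all 22. The EOM difference was 0.08 (adjusted p = 0.993) with 22 arrays and 0.19 (adjusted p = 0.368) with 18. Another Tapbp probe set, 102689_at, gave values of the other sign in leg, -0.49 (adjusted p = 0.719) with 22 arrays and -0.53 (adjusted p = 0.177) with 18, and -0.41 (adjusted p = 0.858) with 22 arrays and -0.54 (adjusted p = 0.205) with 18 in EOM. The third, 162104_f_at, gave 0.09 (adjusted p = 0.9748) with 22 arrays and 0.04 (adjusted p = 0.957) with 18 in leg, and 0.18 (adjusted p = 0.983) with 22 arrays and 0.23 (adjusted p = 0.628) with 18 in EOM.

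Counted together over 22 arrays, 1 of 15 probe sets passed between strains in leg (against 1.41% of all 8695) and 1 of 15 in EOM (against 0.932%). With 18 arrays 5 of 15 passed in leg, all higher in SJL, when 8.2% of all probe sets tested passed and 4.07% of all passed as higher. In EOM 2 of 15 passed, against 8.38%. The median log2 difference of the 15 was 0.32 in leg and 0.12 in EOM, and that of all probe sets was -0.02 and -0.04. Arrays did not overlap between strains at 1 of 15 in each muscle, as at 1.3% of all in leg and 1.63% in EOM. For the difference between muscles of the strain effect, 0 of 15 passed by limma with 22 arrays, none had an unadjusted p under 0.05, and 0.092% of all passed. With 18 arrays 1 of 15 passed, against 1.81%. Under median centring the share of called probe sets that were higher in SJL EOM moved from 39.5% to 52.6%, and the member called there was the same, 97700_at at 2.47 (adjusted p = 3.80e-07).

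**Figure D2:**
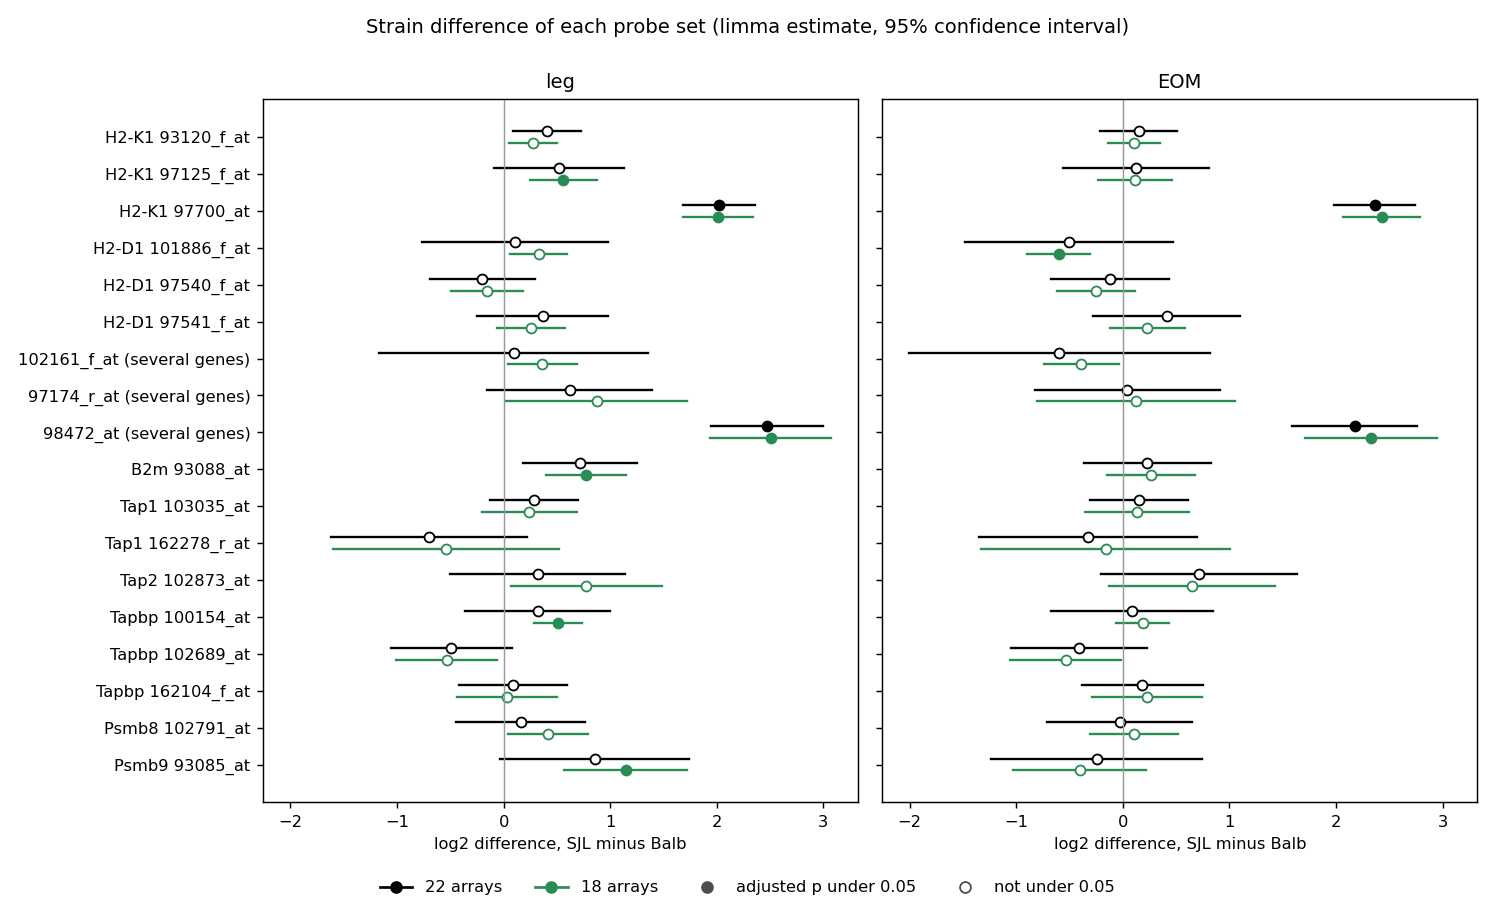
Log2 difference SJL minus Balb with its 95% interval for each member probe set, in leg and in EOM; black is 22 arrays, green is 18, and filled symbols have an adjusted p under 0.05. In both panels 97700_at and 98472_at lie near or above 2, apart from the rest, which lie between -1 and 1.2.

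Markers of other cell types moved with strain in leg. Among all probe sets tested, 1.41% passed in leg and 0.932% in EOM over 22 arrays, and 8.2% and 8.38% over 18. Of 14 macrophage genes tested, 5 were higher in SJL leg over 22 arrays and 8 over 18, with Ctss at 2.05 (adjusted p = 0.00248), Lgals3 at 1.63 (adjusted p = 0.00964) and Lyz2 at 1.36 (adjusted p = 0.00664). The summed intensity of the 17 listed macrophage genes was 12903 to 26976 on Balb leg arrays and 27605 to 55882 on SJL leg arrays, which did not overlap. In EOM the sums overlapped, at 24647 to 32337 and 21442 to 36634. Of 17 listed CD8 T cell and NK cell markers 13 were on the array, and all but 4 of those were left out as low and not tested. Of the 4 tested, 0 passed in either muscle by limma with 22 or with 18 arrays, and none had an unadjusted p under 0.05. In SJL EOM, 5 of 8 orbital gland and epithelium genes were lower than in Balb EOM, and the summed level of their list was 12969.8 to 24204 against 32763 to 56067. No gene of these lists was at 0 on any array, and the part of these cells in the class I differences was not tested. In bulk muscle, fewer cells of a type and less RNA per cell cannot be told apart.

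The second comparison asks how class I genes differ between EOM and leg within a strain. The estimated difference lay on the side of EOM for 14 of 15 probe sets in Balb and 13 of 15 in SJL, and under median centring for 12 and 13. The median difference of all probe sets tested was also above 0, at 0.11 in Balb and 0.04 in SJL. Under median centring it was -0.09 and -0.05. Several of the 15 probe sets belong to the same gene, so these are not 15 separate signs. In Balb, EOM read 3.89 times leg for Psmb9, 1.82 times for Tap1 (103035_at) and 1.69 times for H2-K1 (93120_f_at), and these 3 of 15 probe sets passed over 22 arrays, when 13.6% of all probe sets tested passed and 8.72% passed as higher. In SJL, Tap1 alone of the 15 passed, at 1.66 times leg, against 9.56% of all and 6.14% as higher. With 18 arrays 10 of 15 passed in Balb, when 33.6% of all probe sets passed and 18.5% passed as higher. In SJL 6 of 15 passed with 18 arrays, against 31% of all and 17.1% as higher. Each of these calls was higher in EOM, although under median centring of those arrays H2-D1 101886_f_at passed as lower in SJL EOM, at -0.39 (adjusted p = 0.0364). The 10 Balb calls covered all 8 genes with a probe set of their own.

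Among the 15 probe sets Psmb9 had the largest Balb difference, with 22 and with 18 arrays. Its values, listed above by group, ran from 119.8 to 669 in Balb leg and from 243 to 2708 in Balb EOM. The lowest Balb EOM value was the replicate 1 array at 10 months, and without the 4 such arrays Balb EOM lay wholly above Balb leg. The log2 difference was 1.96 (SE 0.45, adjusted p = 0.00650) with 22 arrays and 2.18 (SE 0.28, adjusted p = 1.75e-05) with 18. In SJL, with 127 to 919 in leg and 627 to 1339 in EOM, it was 0.86 (adjusted p = 0.272) and 0.63 (adjusted p = 0.102).

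Psmb8 is the partner of Psmb9 in the same particle. It read 1255, 965 and 772 in Balb at 10 months, 1968, 1302 and 1378 in Balb at 12 months, 601, 1598 and 928 in SJL at 10 months and 1669, 1991 and 2168 in SJL at 12 months in leg. In EOM the values were 971, 1451 and 1926 in Balb at 10 months, 2752 and 4338 in Balb at 12 months, 824, 2622 and 2382 in SJL at 10 months and 2827 and 2543 in SJL at 12 months. From the highest group mean to the lowest, the order was Balb EOM at 12 months (3545), SJL EOM at 12 months (2685), SJL EOM at 10 months (1943), SJL leg at 12 months (1943), Balb leg at 12 months (1549.6), Balb EOM at 10 months (1449), SJL leg at 10 months (1042) and Balb leg at 10 months (997). The arrays of all neighbours in this order overlapped. EOM minus leg was 0.84 (adjusted p = 0.0795) in Balb and 0.65 (adjusted p = 0.215) in SJL over 22 arrays. With 18 arrays both passed, at 1.06 (adjusted p = 0.000325) and 0.75 (adjusted p = 0.00521), and in SJL the muscles no longer overlapped.

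Tap1 and Tap2 together form the transporter. Tap1 by 103035_at read 580.3, 803 and 676 in Balb at 10 months, 581, 419.6 and 516 in Balb at 12 months, 716, 1014 and 552 in SJL at 10 months and 678, 713 and 698 in SJL at 12 months in leg. Its EOM values were 681, 915 and 871 in Balb at 10 months, 960.5 and 2091 in Balb at 12 months, 1203, 1409 and 1452 in SJL at 10 months and 1049.5 and 1079.5 in SJL at 12 months. All SJL EOM arrays lay above all SJL leg arrays, and in Balb the highest EOM value came from 1 array at 12 months. From the highest group mean to the lowest, the order was Balb EOM at 12 months (1526), SJL EOM at 10 months (1355), SJL EOM at 12 months (1064), Balb EOM at 10 months (823), SJL leg at 10 months (761), SJL leg at 12 months (696), Balb leg at 10 months (686) and Balb leg at 12 months (505). Neighbours in this order overlapped except SJL EOM at 10 months over SJL EOM at 12 months and SJL EOM at 12 months over Balb EOM at 10 months. EOM minus leg was 0.86 in Balb (SE 0.21, adjusted p = 0.00945) and 0.73 in SJL (SE 0.21, adjusted p = 0.0326), and with 18 arrays 0.87 (adjusted p = 0.00570) and 0.76 (adjusted p = 0.0139). Without that array, replicate 2 of Balb EOM at 12 months, the Balb value was 0.59 (adjusted p = 0.0990). The SJL call was lost under median centring, at 0.64 (adjusted p = 0.0606), under quantile normalization, at 0.64 (adjusted p = 0.0659), and without any 1 of 8 arrays: SJL leg at 10 months replicate 3, all 3 of SJL leg at 12 months, SJL EOM at 10 months replicates 2 and 3, and both of SJL EOM at 12 months, with values of 0.63 to 0.74 and adjusted p of 0.0569 to 0.108.

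The second Tap1 probe set, 162278_r_at, ran from 16.2 to 994.5 over the arrays and gave 0.35 (adjusted p = 0.678) with 22 arrays and 0.41 (adjusted p = 0.586) with 18 in Balb, and 0.72 (adjusted p = 0.399) with 22 arrays and 0.79 (adjusted p = 0.281) with 18 in SJL. Tap2 had low intensities, from 60.5 to 474 in Balb leg, 113 to 515 in SJL leg, 110.2 to 1114 in Balb EOM and 418 to 954 in SJL EOM. EOM minus leg was 0.71 (adjusted p = 0.296) and 1.11 (adjusted p = 0.112) with 22 arrays, and 1.12 (adjusted p = 0.0208) and 1.00 (adjusted p = 0.0395) with 18. Under median centring of the 18 arrays the SJL value was 0.91 (adjusted p = 0.0544).

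Tapbp had 3 probe sets that differed among themselves. By 100154_at, EOM minus leg was 0.37 (adjusted p = 0.523) in Balb and 0.14 (adjusted p = 0.875) in SJL, and with 18 arrays the Balb value passed at 0.58 (adjusted p = 0.000772) and the SJL value was 0.25 (adjusted p = 0.103). The replicate 1 arrays at 10 months were the lowest in Balb EOM, SJL EOM and SJL leg, at 995.8, 765.3 and 1004.5. 102689_at was lower in EOM on average, at -0.36 (adjusted p = 0.459) with 22 arrays and -0.35 (adjusted p = 0.274) with 18 in Balb, and -0.28 (adjusted p = 0.638) with 22 arrays and -0.35 (adjusted p = 0.280) with 18 in SJL, and did not pass. 162104_f_at gave 0.19 (adjusted p = 0.683) with 22 arrays and 0.02 (adjusted p = 0.962) with 18 in Balb, and 0.28 (adjusted p = 0.575) with 22 arrays and 0.21 (adjusted p = 0.530) with 18 in SJL.

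**Figure D3:**
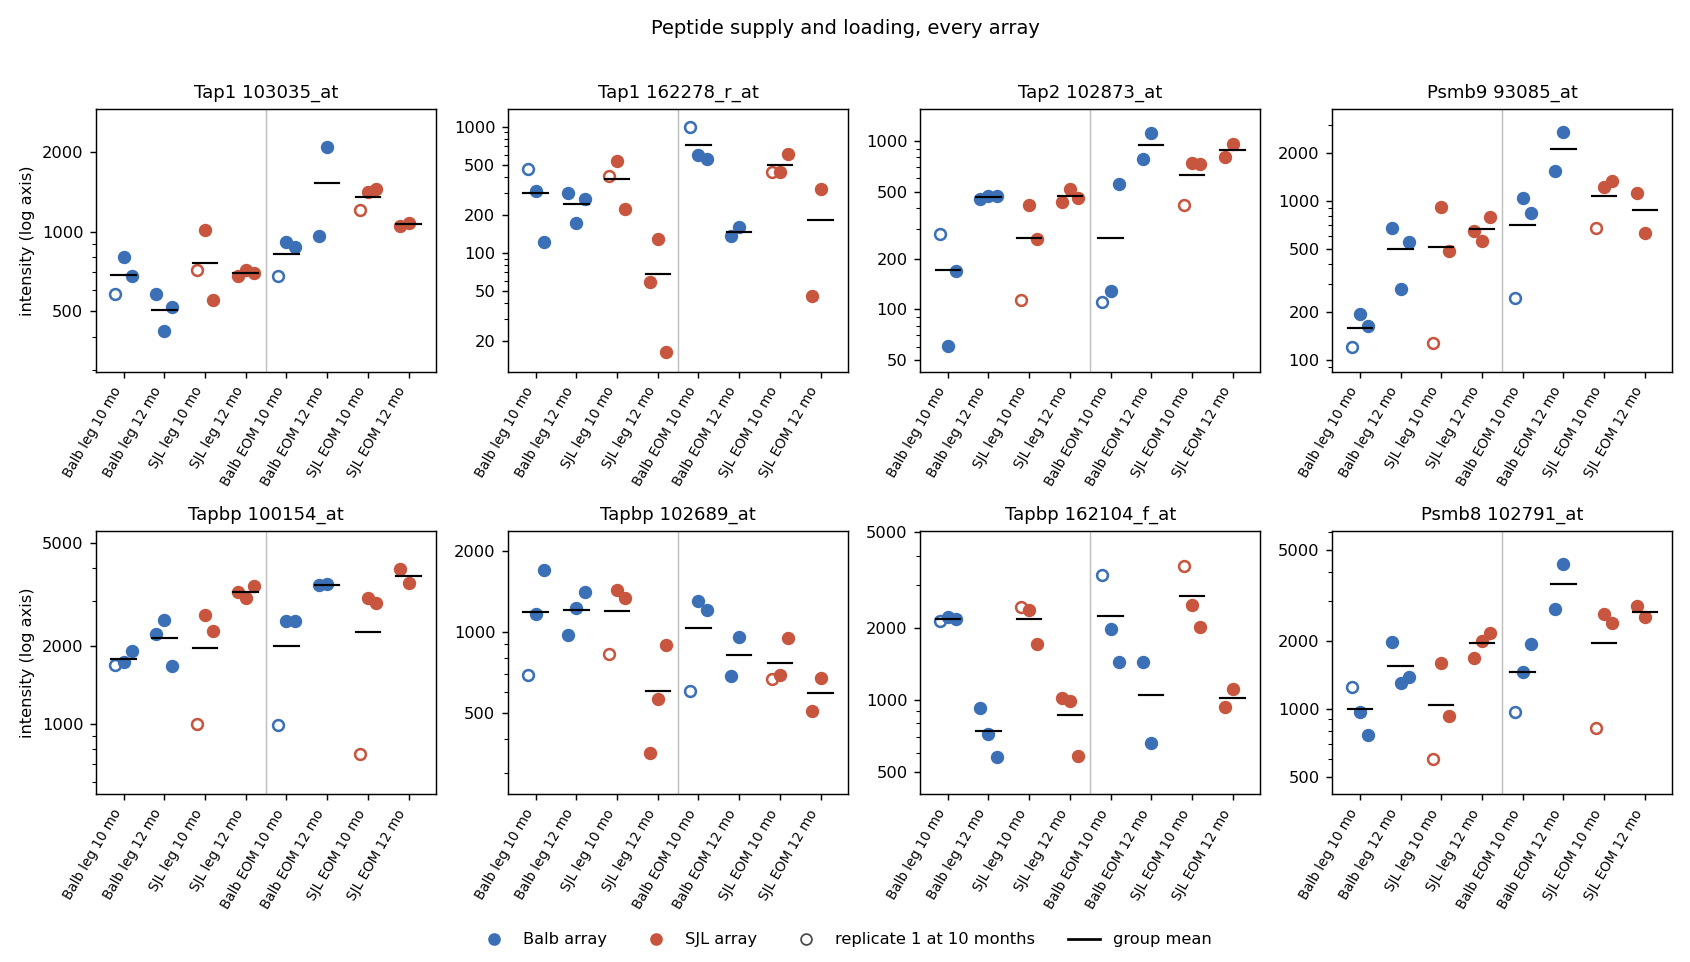
Intensity on each array (log axis) of the Tap1, Tap2, Tapbp, Psmb8 and Psmb9 probe sets, by strain, muscle and age; open symbols are the 4 replicate 1 arrays at 10 months and bars are group means. Psmb9 has its lowest group mean in Balb leg at 10 months, Tap1 103035_at is higher on every SJL EOM array than on any SJL leg array, and Tapbp 162104_f_at is lower at 12 than at 10 months in all 4 strain and muscle groups.

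Among the heavy chains, H2-K1 93120_f_at separated the muscles in Balb. In leg it read 10567, 11625 and 11196 in Balb at 10 months, 14407, 9993 and 12453 in Balb at 12 months, 19384, 11967 and 12211 in SJL at 10 months and 16065, 18378 and 16099.7 in SJL at 12 months. The EOM arrays read 19116, 17632 and 18446 in Balb at 10 months, 18180 and 24202 in Balb at 12 months, 24427, 18032 and 20359 in SJL at 10 months and 24204 and 21552 in SJL at 12 months. All Balb EOM arrays were above all Balb leg arrays, and in SJL 2 leg arrays, at 19384 and 18378, lay above the lowest EOM array, at 18032. EOM minus leg was 0.76 in Balb (SE 0.16, adjusted p = 0.00422) and 0.50 in SJL (SE 0.16, adjusted p = 0.0636). With 18 arrays they were 0.72 (adjusted p = 8.16e-05) and 0.55 (adjusted p = 0.000972).

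H2-K1 97700_at, the probe set that separated the strains, gave 0.18 (adjusted p = 0.529) with 22 arrays and 0.21 (adjusted p = 0.349) with 18 in Balb, and 0.53 (adjusted p = 0.0618) with 22 arrays and 0.63 (adjusted p = 0.00692) with 18 in SJL, where the second value passed. The third H2-K1 probe set, 97125_f_at, gave 0.57 (adjusted p = 0.252) with 22 arrays and 0.77 (adjusted p = 0.00119) with 18 in Balb, where the second value passed, and 0.17 (adjusted p = 0.820) with 22 arrays and 0.32 (adjusted p = 0.133) with 18 in SJL. 98472_at gave 1.08 (adjusted p = 0.0106) with 22 arrays and 0.98 (adjusted p = 0.0125) with 18 in Balb, and 0.78 (adjusted p = 0.0749) with 22 arrays and 0.80 (adjusted p = 0.0388) with 18 in SJL, and in both strains its EOM arrays lay above its leg arrays. Its SJL value was 0.71 (adjusted p = 0.0622) under median centring of the 18 arrays. Its Balb value without replicate 2 of Balb EOM at 12 months was 1.02 (adjusted p = 0.0565). H2-D1 97541_f_at gave 0.54 (adjusted p = 0.279) and 0.59 (adjusted p = 0.281), and passed in both strains with 18 arrays, at 0.46 (adjusted p = 0.0322) and 0.44 (adjusted p = 0.0440). Each of these calls was made in 1 of 35 settings, the main one included, and under median centring of the same 18 arrays the values were 0.29 (adjusted p = 0.192) and 0.35 (adjusted p = 0.117). H2-D1 97540_f_at gave 0.29 (adjusted p = 0.488) with 22 arrays and 0.42 (adjusted p = 0.0630) with 18 in Balb, and 0.37 (adjusted p = 0.419) with 22 arrays and 0.32 (adjusted p = 0.154) with 18 in SJL. H2-D1 101886_f_at gave 0.36 (adjusted p = 0.648) with 22 arrays and 0.63 (adjusted p = 0.00145) with 18 in Balb, and -0.25 (adjusted p = 0.815) with 22 arrays and -0.30 (adjusted p = 0.102) with 18 in SJL. Of the shared probe sets, 102161_f_at gave 0.23 (adjusted p = 0.853) with 22 arrays and 0.33 (adjusted p = 0.127) with 18 in Balb, and -0.46 (adjusted p = 0.747) with 22 arrays and -0.43 (adjusted p = 0.0514) with 18 in SJL, and 97174_r_at gave -0.19 (adjusted p = 0.801) with 22 arrays and -0.07 (adjusted p = 0.918) with 18 in Balb, and -0.77 (adjusted p = 0.261) with 22 arrays and -0.82 (adjusted p = 0.155) with 18 in SJL. B2m gave 0.78 (adjusted p = 0.0642) in Balb and 0.30 (adjusted p = 0.580) in SJL, and with 18 arrays the Balb value passed at 1.00 (adjusted p = 0.000545) and the SJL value was 0.49 (adjusted p = 0.0546).

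The count in Balb, 3 of 15, stood against 13.6% of all probe sets tested, and 8.72% that passed as higher. The count in SJL, 1 of 15, stood against 9.56% and was no more than that background. Same-numbered arrays deviated together at 10 months and not at 12, and with replicate number within age as a block 6 of 15 passed in Balb, against 25.7% of all, and 3 of 15 in SJL, against 20.6%. The block added B2m at 0.87 (adjusted p = 0.00714), Psmb8 at 0.83 (adjusted p = 0.0334) and H2-K1 97125_f_at at 0.59 (adjusted p = 0.0498) in Balb, and H2-K1 93120_f_at at 0.50 (adjusted p = 0.0196) and 97700_at at 0.56 (adjusted p = 0.0240) in SJL. With 18 arrays the counts were 10 of 15 in Balb, when 33.6% of all probe sets tested passed and 18.5% of all passed as higher in EOM, and 6 of 15 in SJL, when 31% of all passed and 17.1% of all passed as higher. The members' median log2 difference was 0.54 in Balb and 0.50 in SJL, and that of all probe sets 0.11 and 0.04. Among all probe sets called, 64.2% were higher in Balb EOM and 38.1% under median centring, which shifted the Balb median of all probe sets to -0.09. In SJL these shares were 64.3% and 52%. Under median centring the 3 Balb members still passed as higher, with Psmb9 at 1.77 (adjusted p = 0.0112), Tap1 at 0.67 (adjusted p = 0.0377) and H2-K1 at 0.56 (adjusted p = 0.0405). Within the 10-month arrays alone no member passed in either strain, with Psmb9 in Balb at 1.84 (adjusted p = 0.332), H2-K1 at 0.72 (adjusted p = 0.304) and Tap1 at 0.26 (adjusted p = 0.829).

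**Figure D4:**
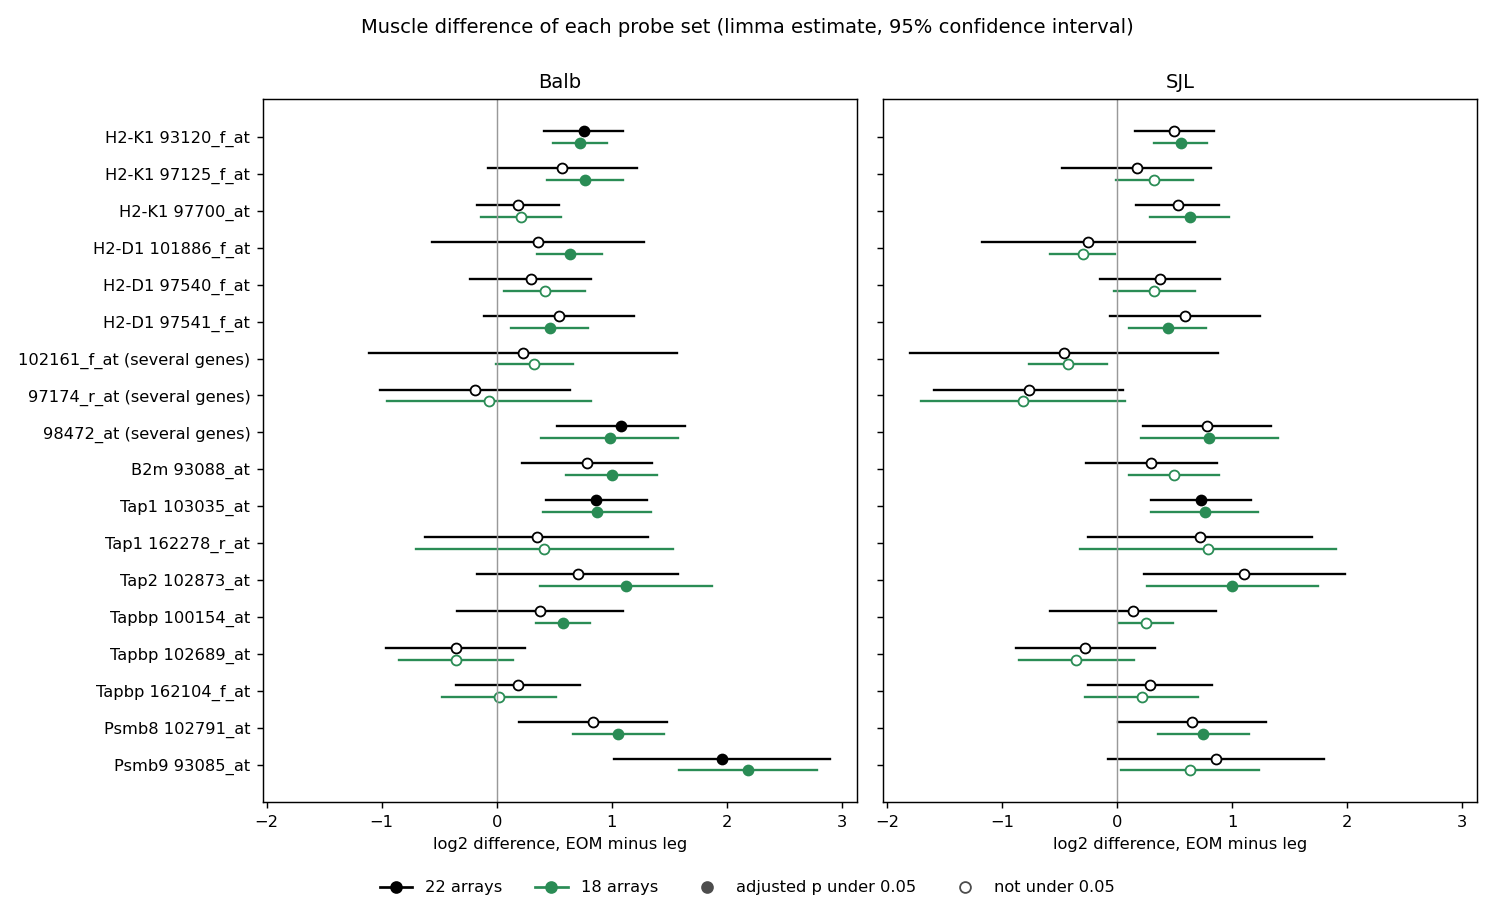
Log2 difference EOM minus leg with its 95% interval for each member probe set, in Balb and in SJL; black is 22 arrays, green is 18, and filled symbols have an adjusted p under 0.05. Most points lie to the right of 0, with Psmb9 in Balb the farthest at 1.96 (22 arrays) and 2.18 (18 arrays), and the filled symbols are all on the right.

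Other genes of the pathway were counted from lists, 1 probe set per gene. Their counts stand against 8.72% of all probe sets tested that passed as higher in Balb EOM and 6.14% in SJL EOM over 22 arrays. With 18 arrays these shares were 18.5% and 17.1%. Of 9 genes that supply or load peptide, 1 was higher in EOM in each strain over 22 arrays, the endoplasmic reticulum chaperone Hsp90b1 at 0.90 (adjusted p = 0.000472) in Balb and 0.96 (adjusted p = 0.000356) in SJL. With 18 arrays 5 were higher in Balb EOM, among them Pdia3, the tapasin partner ERp57, at 1.31 (adjusted p = 3.42e-05), Psmb10, the remaining immunoproteasome subunit, at 0.77 (adjusted p = 0.000611) and the chaperone Canx at 0.45 (adjusted p = 0.0321). Median centring of the 18 arrays left 3 of these in Balb. In SJL EOM 4 were higher, among them Pdia3 at 0.57 (adjusted p = 0.0253) and Psme1, a subunit of the proteasome activator PA28, at 0.55 (adjusted p = 0.000551). Between strains 0 of 9 passed with 22 arrays by limma and 2 had an unadjusted p under 0.05 in each muscle. With 18 arrays Psme1 was higher in SJL in leg, at 0.78 (adjusted p = 6.26e-05), and in EOM, at 1.06 (adjusted p = 9.88e-06).

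The constitutive proteasome subunits, some of which the immunoproteasome subunits replace, were lower in EOM where they passed. Of 14 tested, 1 was lower and 0 were higher in Balb EOM, and 2 were lower and 0 higher in SJL EOM over 22 arrays, and with 18 arrays 6 were lower and 0 higher in each strain. Psmb7 was at -0.74 (adjusted p = 0.000664) in Balb and -0.72 (adjusted p = 0.00126) in SJL, and Psma4 was at -0.75 (adjusted p = 0.0446) in SJL. The list's median was -0.39 in both strains, against 0.77 in Balb and 0.57 in SJL for the 8 members taken in the same way, 1 probe set per gene. Median centring gave 0 of 14 higher and 2 lower in each strain with 22 arrays, and 10 and 9 lower in Balb and SJL with 18. Of all 8695 probe sets, 423 were lower in Balb EOM and 297 in SJL EOM over 22 arrays. Median centring made these 694 and 376, and 1910 and 1487 with 18 arrays, so centring moved calls of all probe sets to lower as well. Between strains 0 of 14 passed in either muscle by limma with 22 arrays, and 0 had an unadjusted p under 0.05.

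Of 9 other class I heavy chain genes, 0 passed between muscles or strains with 22 arrays by limma, and 1 had an unadjusted p under 0.05, in the Balb muscle comparison. With 18 arrays 2 were higher in Balb EOM, Hfe, a relative that controls iron uptake, at 0.93 (adjusted p = 0.00203) and H2-Bl at 0.51 (adjusted p = 0.0199), and 2 were lower in SJL EOM, H2-Q4 at -0.86 (adjusted p = 0.00259) and H2-Bl at -0.63 (adjusted p = 0.00541). Under median centring of the 18 arrays H2-Bl was at 0.33 (adjusted p = 0.134) in Balb and -0.72 (adjusted p = 0.00275) in SJL. Of 11 transcription factor and interferon gamma signalling genes, 2 were higher in Balb EOM with 22 arrays, the receptor chain Ifngr1 at 0.76 (adjusted p = 0.0330) and Irf9, a factor of the type I interferon response, at 1.05 (adjusted p = 0.0428), and 0 in SJL EOM, where 2 had an unadjusted p under 0.05. Median centring of the 22 arrays left 0 of 11 called in either strain. With 18 arrays Irf1, a factor that binds class I promoters, was also higher in Balb EOM, at 1.11 (adjusted p = 0.00248), and the other receptor chain Ifngr2 was lower, at -1.20 (adjusted p = 0.000104). Between strains 0 of 11 passed by limma with 22 arrays, and 2 in leg and 0 in EOM had an unadjusted p under 0.05.

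Genes induced by interferon were counted in the same way. Of 13 tested, 2 were higher in Balb EOM over 22 arrays, the interferon-inducible GTPases Iigp1 at 1.47 (adjusted p = 0.00984) and Gbp3 at 1.44 (adjusted p = 0.0431), and 0 were called in SJL EOM by limma, where 2 had an unadjusted p under 0.05. Median centring left 1 of the Balb calls. With 18 arrays 7 were higher and 1 lower in Balb EOM (4 and 1 under median centring of those arrays), and 4 were higher in SJL EOM, led by Gbp2 at 1.28 (adjusted p = 0.000432). In the strain comparison 0 of 13 passed with 22 arrays in either muscle by limma, and 4 in leg and 0 in EOM had an unadjusted p under 0.05. With 18 arrays 5 were higher and 1 lower in SJL leg, with Usp18, which damps interferon signalling, at 1.86 (adjusted p = 0.00880) and Ifi35 at -1.31 (adjusted p = 0.0142), and Gbp2 was higher in SJL EOM at 1.02 (adjusted p = 0.0142).

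**Figure D5:**
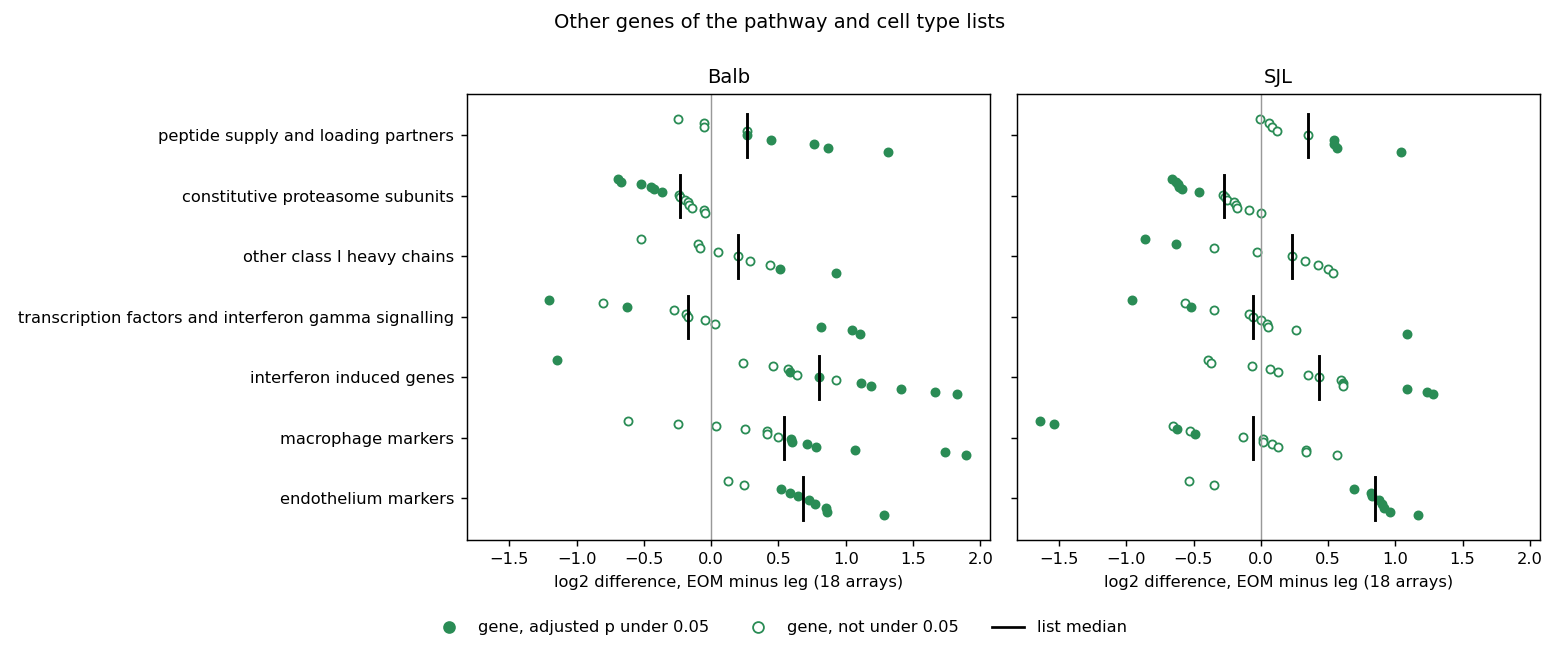
Log2 difference EOM minus leg with 18 arrays for each gene of 7 lists, in Balb and in SJL, with the list median as a bar. The constitutive proteasome genes lie mostly below 0, and the endothelium markers lie mostly above 0 in both strains.

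Marker RNAs of other cell types also differed between muscles. Among all probe sets tested, 8.72% passed as higher in Balb EOM and 6.14% in SJL EOM over 22 arrays, and 18.5% and 17.1% with 18. Of 10 endothelium markers, 6 were higher in Balb EOM and 5 in SJL EOM over 22 arrays, with Tie1 at 0.70 (adjusted p = 0.00817) and 0.97 (adjusted p = 0.000866). Under median centring these counts were 1 and 4, and with 18 arrays 8 and 8. Their summed intensity did not overlap between muscles: 9677 to 13838 in Balb leg against 16758 to 21982 in Balb EOM, and 10749 to 15131 in SJL leg against 18499.6 to 26637 in SJL EOM. Of 14 macrophage genes, 5 were higher in Balb EOM (3 under median centring), and 1 was lower in SJL EOM. Of 8 orbital gland and epithelium genes, 6 were higher in Balb EOM and 2 in SJL EOM, with sums of 32763 to 56067 and 12969.8 to 24204 against 5566 to 17782 and 5542 to 25128 in leg. None of the 4 tested CD8 T cell and NK cell markers passed between muscles with 22 or 18 arrays, and none had an unadjusted p under 0.05. Most of the 13 such markers on the array were left out as low and not tested. The part of these cells in the class I differences was not tested.

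The third comparison asks how the members differed between 10 and 12 months. Few passed, and the probe sets of a gene went different ways. Tapbp 162104_f_at was lower at 12 months in both legs and in SJL EOM, Tap1 162278_r_at was lower in SJL leg, and Tap2 was higher in Balb EOM. The other Tapbp and Tap1 probe sets passed in none of the 4 comparisons with 22 arrays.

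Tapbp 162104_f_at read 2137, 2222 and 2164 in Balb at 10 months, 922, 719.7 and 574 in Balb at 12 months, 2428, 2370.4 and 1699.9 in SJL at 10 months and 1013, 984 and 579.8 in SJL at 12 months in leg. EOM arrays gave 3324, 1974 and 1432 in Balb at 10 months, 1436 and 660.5 in Balb at 12 months, 3616, 2490.1 and 2002 in SJL at 10 months and 928 and 1103 in SJL at 12 months. In both strains all 12-month leg arrays were below all 10-month leg arrays. The log2 differences were -1.56 (adjusted p = 0.00395) in Balb leg, -1.34 (adjusted p = 0.00746) in SJL leg, -1.10 (adjusted p = 0.0900) in Balb EOM and -1.36 (adjusted p = 0.0220) in SJL EOM. Under median centring they were -1.17 (adjusted p = 0.0221), -0.88 (adjusted p = 0.0511), -0.89 (adjusted p = 0.165) and -1.001 (adjusted p = 0.0741). Without replicate 1 of SJL EOM at 10 months the SJL EOM value was -1.13 (adjusted p = 0.0847), without replicate 1 at 12 months -1.24 (adjusted p = 0.178) and without replicate 3 at 12 months -1.48 (adjusted p = 0.0765). The probe set 100154_at of the same gene gave 0.24 (adjusted p = 0.775), 0.82 (adjusted p = 0.205), 0.90 (adjusted p = 0.321) and 0.96 (adjusted p = 0.220) in the order of the first 4 values.

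Tap1 162278_r_at read 408, 531 and 224 in SJL leg at 10 months and 58.6, 129 and 16.2 at 12 months, without overlap. The log2 difference was -2.44 (adjusted p = 0.00722), against -0.08 (adjusted p = 0.856) for Tap1 103035_at. Tap2 read 110.2, 129 and 553 in Balb EOM at 10 months and 777 and 1114 at 12 months. Its difference was 2.12 (adjusted p = 0.0444), and it passed in 14 of 33 settings, the main one included. Leaving out any 1 of 4 of the 5 Balb EOM arrays, all but replicate 3 at 10 months, gave log2 differences of 1.72 to 2.37 with adjusted p of 0.114 to 0.347. Leaving out any 1 of 12 arrays of other groups (replicate 3 of Balb leg and of SJL leg at 10 months, all 3 of each strain's leg at 12 months, replicates 2 and 3 of SJL EOM at 10 months and both at 12 months) left the difference at 2.12 with adjusted p of 0.0509 to 0.0563.

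In counts, 1 of 15 passed between ages in Balb leg, 2 in SJL leg, 1 in Balb EOM and 1 in SJL EOM, against 19.1%, 25.3%, 7.8% and 14.9% of all probe sets, so the members' counts were not above the background. Of all probe sets called with 22 arrays, 16.8% were higher at 12 months in Balb leg, 23.6% in SJL leg, 15.8% in Balb EOM and 17.7% in SJL EOM. Median centring moved these shares to 57%, 62.1%, 39.1% and 55.7%, and moved the median of all probe sets from -0.08 to 0.31, from -0.10 to 0.36, from -0.06 to 0.15 and from -0.13 to 0.23. With median centring Psmb9 at 1.89 (adjusted p = 0.0315) and Tap2 at 1.97 (adjusted p = 0.0197) also passed as higher in 12-month Balb leg, and in 12-month SJL leg Psmb8 at 1.45 (adjusted p = 0.0115), Tapbp 100154_at at 1.28 (adjusted p = 0.0372), H2-K1 93120_f_at at 0.71 (adjusted p = 0.0288) and H2-D1 97540_f_at at 1.21 (adjusted p = 0.0114). By direction, the members called went from 0 higher and 1 lower to 2 and 1 in Balb leg, from 0 and 2 to 4 and 1 in SJL leg, from 1 and 0 to 2 and 0 in Balb EOM and from 0 and 1 to 1 and 0 in SJL EOM. Median centring of the 22 arrays called 988, 1719, 184 and 756 of all 8695 probe sets higher, in the same order of groups. It called 745, 1047, 286 and 602 lower. With 18 arrays and the authors' scaling 7, 7, 3 and 5 of 15 passed, against 42%, 48.7%, 21.9% and 28.8%. Under median centring of these arrays 9 were higher and 1 lower in Balb leg, and 8 and 3 in SJL leg. Both EOM groups had 0 lower, with 6 higher for Balb and 5 for SJL. Of all 8695 probe sets, that setting called 3121, 3473, 1508 and 2518 higher, taking the groups in the earlier order. It called 1178, 1283, 647 and 857 lower, so higher was the common direction among all probe sets called. Whether the members rose beyond this background was not tested.

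The calls made with the 18 arrays are given by gene. Psmb8 was higher at 12 months in Balb leg at 0.81 (adjusted p = 0.0168), in SJL leg at 0.66 (adjusted p = 0.0394) and in Balb EOM at 1.04 (adjusted p = 0.0143). Psmb9 was higher in Balb leg at 1.33 (adjusted p = 0.0112). Tap2 was higher in Balb leg at 2.01 (adjusted p = 0.00329) and in Balb EOM at 1.72 (adjusted p = 0.0268). H2-D1 97541_f_at was higher in all 4 groups, at 0.83 (adjusted p = 0.00545) in Balb leg, 0.76 (adjusted p = 0.00821) in SJL leg, 0.82 (adjusted p = 0.0204) in Balb EOM and 0.70 (adjusted p = 0.0335) in SJL EOM. The other H2-D1 probe sets were higher in SJL EOM, 101886_f_at at 0.54 (adjusted p = 0.0480) and 97540_f_at at 0.81 (adjusted p = 0.0211). H2-K1 was higher by 93120_f_at in SJL leg, at 0.48 (adjusted p = 0.0150), and lower by 97700_at in Balb leg, at -0.60 (adjusted p = 0.0370), where 98472_at was at -1.001 (adjusted p = 0.0439). Median centring of the 18 arrays gave these last 2 as -0.19 (adjusted p = 0.499) and -0.59 (adjusted p = 0.202).

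The probe sets of Tapbp again went different ways. With 18 arrays 162104_f_at was lower in Balb leg at -1.58 (adjusted p = 0.00107), in SJL leg at -1.25 (adjusted p = 0.00414) and in SJL EOM at -1.13 (adjusted p = 0.0218), and the SJL EOM value was -0.74 (adjusted p = 0.0792) under median centring. In SJL leg 102689_at was lower, at -1.26 (adjusted p = 0.00402), and 100154_at was higher, at 0.39 (adjusted p = 0.0397). Tap1 162278_r_at was lower in SJL leg at -2.36 (adjusted p = 0.0123). B2m was higher in Balb leg at 1.07 (adjusted p = 0.00322) and lower in SJL EOM at -0.99 (adjusted p = 0.0142), and under median centring of the 18 arrays these were 1.48 (adjusted p = 0.000155) and -0.60 (adjusted p = 0.0890). Whether the age difference itself differed between groups was not tested.

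Probe sets were also compared across all arrays for how alike they varied. Over 22 arrays log2 values of Psmb8 correlated with those of Psmb9 at r = 0.82 and of Tap2 at r = 0.821, and over the 18 arrays at 0.866 and 0.831. B2m correlated with Psmb8 at 0.175 over 22 arrays and 0.577 over 18. These are descriptions over arrays that share strain, muscle, age and RNA quality. The probe sets of other genes most like Psmb8 were those of Serping1 (r = 0.925), a complement inhibitor, Tmed3 (0.914), Hspa14 (0.911), Ifitm3 (0.897), an interferon-induced membrane protein, and Ube2z (0.889). Those most like B2m were Hsd11b1 (0.85), which activates glucocorticoids, Il13ra1 (0.801), Mtmr14 (0.794), AI506816 (0.78) and Col3a1 (0.773), a fibrillar collagen.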

How the data were processed

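Total RNA of 22 muscle samples was hybridised to Affymetrix arrays by the authors, per the labels' protocols with the standard Affymetrix protocol. Software, background correction and summarization are not given in the sources used here. The deposited values are linear intensities, 1 per probe set and array, already scaled by the authors. Gene symbols came from the platform annotation: of 12488 probe sets, 66 were controls, and 10833 carried 1 symbol, 396 several and 1193 none. No further normalization was applied. Values were taken as log2(intensity + 16), so fold changes of dim probe sets are understated. Probe sets in the lowest 30% by mean were left out, and 8695 were tested, among them all 15 member probe sets with 1 symbol and 3 of the 4 with several.

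The fit was a model of 8 group means over the 22 arrays (limma 3.58.1, R 4.3.3), with 14 residual degrees of freedom, or 10 with 18 arrays. Tests were two-sided, with Benjamini-Hochberg adjustment over all probe sets of a comparison and a threshold of 0.05. Strain and muscle differences average both ages with equal weight. Pairs of probe sets were compared by exact permutation. The model was also run on simulated data with independent noise on each array. Those data held no deviations shared between arrays, so that run does not cover the shared deviations described next. Same-numbered arrays correlated in their deviations from group means at 0.293 to 0.69 between muscles and 0.341 to 0.759 between strains at 10 months, and at -0.02 to 0.01 and -0.08 to -0.01 at 12 months. The labels give no meaning to the numbers. The replicate 1 arrays at 10 months also shared high Actb 3 prime to 5 prime ratios. In a small group, 1 array that stands apart also shifts the deviations of the others. A shared source at 10 months and this shared RNA quality therefore cannot be told apart by these correlations, which were not computed without those arrays. Fits with replicate number as a block are given beside the muscle results. Every probe set of the members was named. From each other list the counts and up to 4 genes with the smallest adjusted p among those that passed were named in strain and muscle comparisons, using the probe set of highest mean, and for B2m and Psmb8 the 5 most alike genes by Pearson correlation. The members and lists were chosen with earlier results of these data known. Alternatives were other pseudocounts (1 and 64), no filter, median centring, quantile normalization, no variance trend, only the groups compared, a replicate block, each age alone, 18 arrays and each array left out, and, added after the data were seen, median centring of the 18 arrays. Python 3.11.15 and matplotlib 3.10.9 drew the figures.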

Additional observations from a re-analysis of the deposited data

Results flagged for a closer look

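With the 18 arrays left after taking out the replicate 1 arrays at 10 months, the strain difference at H2-D1 101886_f_at was not the same in both muscles. It was 0.33 in leg and -0.60 in EOM on the log2 scale (SJL minus Balb), and the test of the difference gave 0.93 (SE 0.19, adjusted p = 0.0164 by limma). With all 22 arrays it was 0.61 (adjusted p = 0.9996). This difference passed in 2 of 35 settings. The other H2-D1 probe sets passed in 0 of 35, with lowest adjusted p of 0.878 for 97540_f_at and 0.933 for 97541_f_at by limma. The call is therefore of this f probe set and not of H2-D1 as a gene.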

How the results depend on the processing

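The strain calls at H2-K1 97700_at and 98472_at held under all 35 settings, the main one included, in both muscles. Counts below are of 15 member probe sets passing, or of 10 pairs. For single ages and single arrays left out, the counts are given without the share of all probe sets, which also moves with the setting. Such member counts therefore cannot be read as above or below the background. With 18 arrays the member counts were 5 for strain in leg, 2 for strain in EOM, 1 for the difference of the strain effect, 10 and 6 for muscle in Balb and SJL, 7, 7, 3 and 5 for age in Balb leg, SJL leg, Balb EOM and SJL EOM, and 4 pairs, and with median centring as well 5, 2, 1, 9, 5, 10, 11, 6, 5 and 4. Of all probe sets, that centring called 305 higher and 314 lower in SJL leg than in Balb leg, and 456 and 269 in EOM. Between muscles it called 1020 higher and 1910 lower in Balb EOM, and 1162 and 1487 in SJL EOM. Median centring of 22 arrays gave 0 for muscle in SJL and 3, 5 and 2 for age in Balb leg, SJL leg and Balb EOM, and quantile normalization 0 for muscle in SJL and 3 for age in Balb leg. Fits of only the groups compared gave 0 for muscle in SJL and 2, 1, 0 and 0 for the age comparisons in the same order. The 10-month arrays alone gave 0 for muscle in Balb and 0 in SJL, and the 12-month arrays alone 2 for strain in leg, 6 for muscle in Balb and 0 pairs. The H2-K1 pair shifts there were -2.15 and -2.13 with adjusted p = 0.0556 each, and both unadjusted p were at 0.0167, the smallest that the exact test's 120 permutations allow. Age in Balb EOM had 0 without a filter, 0 with a pseudocount of 1 and 2 with 64. Leaving out 1 array gave 1 to 2 for strain in leg (2 without replicate 1 of Balb leg at 10 months), 1 to 1 for strain in EOM, 0 to 0 for the difference, 2 to 4 for muscle in Balb, 0 to 3 for muscle in SJL (3 without replicate 1 of SJL leg or of SJL EOM at 10 months), 1 to 3 for age in Balb leg, 2 to 3 in SJL leg, 0 to 3 in Balb EOM, 0 to 2 in SJL EOM and 2 to 4 pairs (4 without replicate 3 of SJL EOM at 12 months). H2-D1 97541_f_at changed sign between ages in SJL EOM, from 0.08 to -0.018 with quantile normalization. Leaving out 1 array there gave -0.23 to 0.70 (0.70 without replicate 1 at 10 months), with -0.23 without replicate 2 or replicate 3 at 10 months and -0.12 without replicate 1 at 12 months. The cause of these changes was not tested. With a replicate block the counts were 6 and 3 for muscle in Balb and SJL, and 2 and 3 for age in the Balb leg and EOM groups, and the other counts stayed within 1.5 times. Groups of 2 or 3 arrays and unknown probe matching to the SJL and Balb alleles limit every heavy chain value.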

Other observations

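Klrc1 encodes NKG2A, an inhibitory receptor of NK and CD8 T cells that recognises the product of H2-T23. Its probe set passed as lower at 12 months in all 4 strain and muscle groups over 22 arrays, with log2 differences of -1.46 (adjusted p = 0.00298) in Balb leg, -1.99 (adjusted p = 0.000180) in SJL leg, -1.25 (adjusted p = 0.0334) in Balb EOM and -1.55 (adjusted p = 0.00588) in SJL EOM. Under median centring the values were -1.07 (adjusted p = 0.0160), -1.53 (adjusted p = 0.00123), -1.04 (adjusted p = 0.0624) and -1.19 (adjusted p = 0.0204), so the Balb EOM value no longer passed. The probe set 98472_at, listed for H2-T23, gave -0.99 (adjusted p = 0.0585), 0.13 (adjusted p = 0.827), 0.49 (adjusted p = 0.502) and 0.15 (adjusted p = 0.831) in the same order. Il2rb, an interleukin receptor chain of the same marker list, was lower in Balb leg at -1.09 (adjusted p = 0.0225), in SJL leg at -1.40 (adjusted p = 0.00378) and in SJL EOM at -1.10 (adjusted p = 0.0457) over 22 arrays, and Balb EOM gave -1.07 (adjusted p = 0.0798). Under median centring SJL leg alone still passed, at -0.94 (adjusted p = 0.0255), against -0.70 (adjusted p = 0.106) in Balb leg, -0.74 (adjusted p = 0.133) in SJL EOM and -0.86 (adjusted p = 0.137) in Balb EOM. Both genes were picked out after their values were seen, and the other tested markers of that list are not described between ages. Of all probe sets 19.1% passed in Balb leg, 25.3% in SJL leg, 7.8% in Balb EOM and 14.9% in SJL EOM with 22 arrays. Of those that passed, 16.8%, 23.6%, 15.8% and 17.7% were higher at 12 months, so lower was the common direction.

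H2-Bl, another class I heavy chain gene measured by a probe set of the f type, gave with 18 arrays 0.53 (adjusted p = 0.0413) for SJL minus Balb in leg and -0.62 (adjusted p = 0.0289) in EOM, and 1.14 (adjusted p = 0.0128) for leg minus EOM. With 22 arrays the last value was 0.80 (adjusted p = 0.9996), and with median centring of the 18 arrays 1.06 (adjusted p = 0.0267). That centring gave 0.53 (adjusted p = 0.0502) in leg and -0.53 (adjusted p = 0.0681) in EOM, neither of which passed. H2-D1 101886_f_at gave 0.93 (adjusted p = 0.0164) for the same difference with 18 arrays.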
